A study of Mus musculus with 2 samples.

Results

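The genes described here are 10 markers of neutrophil granule formation, chosen by name: the primary granule genes Mpo, Elane, Prtn3, Ctsg and Ms4a3, and the late granule and cytosolic genes Camp, Ltf, Ngp, S100a8 and S100a9. All 10 had a row among the 23210 genes used. They were read in 2 RNA sequencing libraries of mouse hematopoietic stem cells (HSCs), 1 from SATB1-positive and 1 from SATB1-negative cells. Both fractions were sorted as CD150+ Flt3- LSK cells (lineage-negative, Sca-1-positive, Kit-positive), and were told apart by a Tomato reporter of Satb1, a gene for a chromatin organizer. The labels give no strain, age, treatment, number of animals or pooling, and no further allele for either group. The question of the design is the change of each gene in SATB1-positive relative to SATB1-negative cells. Each group being a single library, the differences could not be set against replicates, and no p-value was computed.

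Neutrophils fill their granules in a fixed order as they mature. Primary (azurophil) granules form at the promyelocyte stage and carry myeloperoxidase and serine proteases. Secondary granules follow at the myelocyte stage and carry lactoferrin and cathelicidin, and the calcium-binding proteins S100A8 and S100A9 accumulate in the cytosol. The early set is already transcribed in granulocyte-monocyte progenitors.

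The labelled identity was checked on the genes of the sort and on HSC markers. Satb1 was at 8.26 FPKM (the number of fragments per kilobase of transcript, relative to all mapped fragments) in the SATB1-positive library and 2.37 FPKM in the SATB1-negative library, and Kit was at 286 FPKM in SATB1-positive and 318 FPKM in SATB1-negative cells. Ly6a, which encodes Sca-1, was at 73.9 FPKM in SATB1-positive and 64.5 FPKM in SATB1-negative cells, Slamf1, which encodes CD150, at 11.9 FPKM in SATB1-positive and 15.97 FPKM in SATB1-negative cells, and Flt3 at 27.1 FPKM in SATB1-positive and 17.3 FPKM in SATB1-negative cells. Cd48, a surface marker that more committed progenitors carry, was at 145 FPKM in SATB1-positive and 47.6 FPKM in SATB1-negative cells, 3.05-fold higher (2.85 to 3.26); its part in the granule gene results was not tested. All 14 of 14 listed long-term HSC genes were measured, that is, at 1 FPKM or more in either library. This minimum is low, and all 14 were lower in SATB1-positive than in SATB1-negative cells. Flt3 RNA was also measured in both libraries, although the cells were sorted as Flt3-. Depth, estimated from the steps between low FPKM values, was about 26780000 fragments in the SATB1-positive and 34920000 in the SATB1-negative library. Intervals beside folds are exact (Clopper-Pearson) 95% intervals on fragments estimated from FPKM. They cover counting error only, not the spread between animals or sorts, and are too narrow where PCR copies of 1 molecule were counted.

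The upstream sequences of the genes are shown first, because several of them are neighbours on a chromosome and most members of a set differ in the same direction between the libraries, S100a9 being the exception. All 10 genes matched an entry of the RefSeq promoter table (GRCm38.p6, which is mm10), and the 150 bases before each RefSeq start were searched on both strands. Elane and Prtn3 lie next to each other on the plus strand of chromosome 10, S100a8 and S100a9 face each other on chromosome 3, and Ltf and Ngp lie on the plus strand of chromosome 9. Their 6 sequences are printed 5′ to 3′, each ending at the base before the RefSeq start. Capitals mark every match, on either strand, to any of 4 short motifs. The motif of the C/EBP factors, regulators of granulocyte genes, was searched as TTNNGNAA. The motif of PU.1, a myeloid factor, was searched as GAGGAA. The motif of the RUNX factors was searched as TGTGGT, and the TATA box, a core promoter element, as TATAA.
Elane, chr10:79886162-79886311, plus strand: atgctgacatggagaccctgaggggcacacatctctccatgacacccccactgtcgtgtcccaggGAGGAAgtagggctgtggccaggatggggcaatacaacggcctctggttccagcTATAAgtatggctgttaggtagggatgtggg
Prtn3, chr10:79879517-79879666, plus strand: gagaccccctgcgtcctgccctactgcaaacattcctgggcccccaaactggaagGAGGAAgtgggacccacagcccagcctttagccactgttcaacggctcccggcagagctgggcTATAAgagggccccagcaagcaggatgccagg
Ltf, chr9:111019142-111019291, plus strand: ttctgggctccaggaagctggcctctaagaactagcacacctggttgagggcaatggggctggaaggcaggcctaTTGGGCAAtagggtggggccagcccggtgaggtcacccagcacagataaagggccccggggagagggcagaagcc
Ngp, chr9:110419658-110419807, plus strand: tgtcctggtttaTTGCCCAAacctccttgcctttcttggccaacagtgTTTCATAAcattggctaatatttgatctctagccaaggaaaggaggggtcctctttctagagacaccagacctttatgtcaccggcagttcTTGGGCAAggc
S100a8, chr3:90668921-90669070, plus strand: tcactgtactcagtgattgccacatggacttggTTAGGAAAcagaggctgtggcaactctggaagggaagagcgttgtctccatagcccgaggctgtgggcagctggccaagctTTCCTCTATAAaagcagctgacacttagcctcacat
S100a9, chr3:90695722-90695871, minus strand: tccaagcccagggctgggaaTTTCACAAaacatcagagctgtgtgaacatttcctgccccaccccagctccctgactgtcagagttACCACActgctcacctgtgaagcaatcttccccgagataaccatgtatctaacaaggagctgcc

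Elane and Prtn3 shared a layout, with GAGGAA starting 85 bases before the start of Elane and 95 before that of Prtn3. Each also had TATAA, starting 31 bases before the start of Elane and 32 before that of Prtn3. TTNNGNAA was found in 1 of 5 primary genes, Ms4a3, and in 4 of 5 late genes, Ltf, Ngp, S100a8 and S100a9. Of the 32851 promoters in the table, 22.7% held TTNNGNAA in the same window. GAGGAA was found in 2 of 5 primary genes (Elane and Prtn3) and 1 of 5 late genes (S100a8), against 14.5% of all promoters. TATAA was found in the same 3 genes, against 14.2% of all promoters, and in S100a8 it directly follows the GAGGAA match (read there as its complement). TGTGGT was found in Ctsg and S100a9, against 8.40% of all promoters. No matches overlapped. Mpo and Camp had none of the 4 motifs in this window, which says only that these letters are not there. The GENCODE transcript starts lie upstream of the RefSeq start by 203 bases for Mpo and 161 for Camp, so the windows of these genes lie wholly inside the gene model of that annotation. The distance is 93 bases for S100a8, 65 for Elane and 61 for Ngp, so those windows lie partly inside it. For Prtn3 the distance is 53 bases to the start of its shortest RefSeq-linked transcript. The Prtn3 gene model as a whole starts further upstream, at 79874476, so the Prtn3 window lies wholly inside that model. A match is a description of letters, not a site of binding.

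The primary granule genes were higher in SATB1-positive than in SATB1-negative HSCs, and the late genes were at like or lower levels. The log2 ratio used here is that of FPKM + 1, SATB1-positive over SATB1-negative. A gene passed the rule of size when this ratio reached 1 or -1 and 5 FPKM were reached in whichever library was higher. By this rule 4 of 5 primary genes were higher and 0 lower. Of the 9308 genes reaching 5 FPKM in either library, 122 passed as higher (1.31%) and 64 as lower (0.688%), or 1.11% and 0.422% without small RNA genes. Of the 5 late genes, 0 passed in either direction. The median log2 ratio was 1.39 over the primary genes and -0.45 over the late genes, beside -0.00017 over those 9308 genes. In bulk RNA, more cells with a transcript and more transcript per cell cannot be told apart, and that holds for every value here. The 10 genes were named with earlier results of these libraries known, so their contrast is a description.

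**Figure D1:**
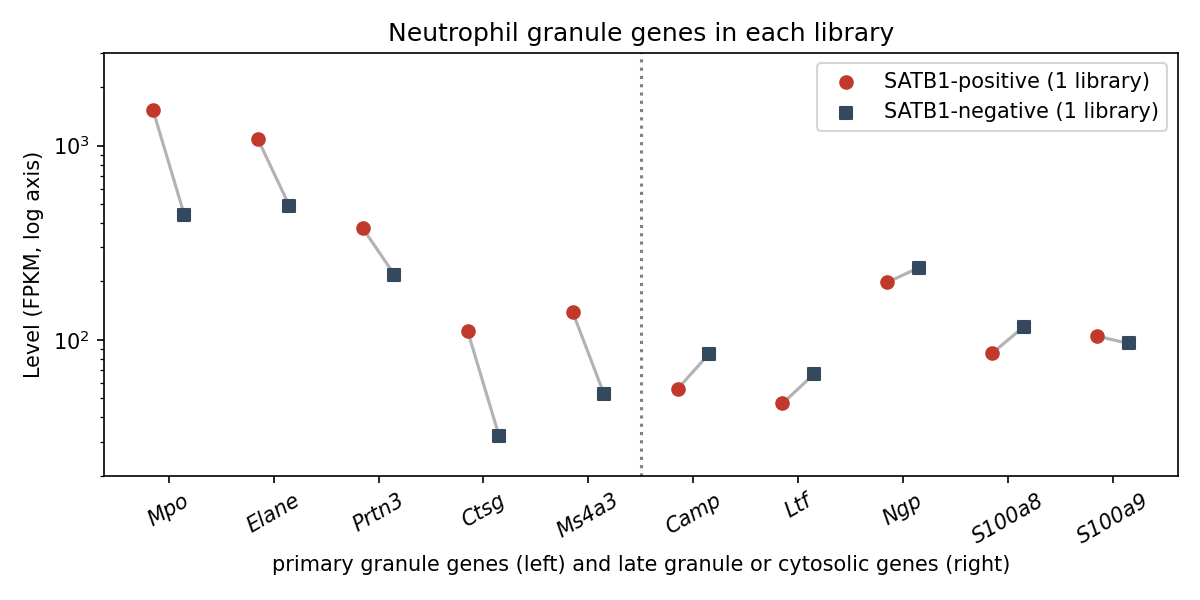
Level of each granule gene in the SATB1-positive (red circles) and SATB1-negative (dark squares) library, in FPKM on a log axis, 1 library each. The red circle is higher for all 5 primary genes on the left, from 1528 FPKM for Mpo to 111 FPKM for Ctsg, and lower for 4 of the 5 late genes on the right.

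Mpo encodes myeloperoxidase, the heme enzyme that makes hypochlorous acid in primary granules. It was at 1528 FPKM in the SATB1-positive and 437 FPKM in the SATB1-negative library, 3.49-fold higher (3.45 to 3.53). About 103945 fragments lay behind the value in SATB1-positive and 38870 in SATB1-negative cells. This placed it as the 21st most abundant of all genes in SATB1-positive cells and the 125th in SATB1-negative cells. Its log2 ratio of 1.80 ranked 36th of the 9308 genes. Mpo (ENSMUSG00000009350.13) spans positions 87793581 to 87804413 on the plus strand of chromosome 11 and has 14 exons. Its exons overlap those of the annotated gene Gm11505, and the strand setting of the authors' counting is not given in the sources used here.

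The serine proteases of primary granules differed among themselves in size of change. Elane, neutrophil elastase, was at 1081 FPKM in SATB1-positive and 490.3 FPKM in SATB1-negative cells, 2.204-fold higher (2.16 to 2.25) with a log2 ratio of 1.14. In SATB1-negative cells Elane was the more abundant of Elane and Mpo; in SATB1-positive cells Mpo was. The Mpo to Elane ratio of FPKM was 1.41 in SATB1-positive and 0.892 in SATB1-negative cells.

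Prtn3, proteinase 3, was at 375 FPKM in SATB1-positive and 217 FPKM in SATB1-negative cells, 1.73-fold higher (1.67 to 1.79). Its log2 ratio of 0.79 did not meet the rule of size, which the other 4 primary genes met, although it ranked 185th of 9308. Prtn3 and Elane are 3072 bases apart at positions 79874476 to 79883174 and 79886247 to 79888215 of chromosome 10, with 5 exons each. Their counting intervals did not overlap, and the Elane to Prtn3 ratio of FPKM was 2.88 in SATB1-positive and 2.26 in SATB1-negative cells. An exon of Prtn3's gene model overlaps Plppr3 on the minus strand.

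Ctsg, cathepsin G, was the least abundant primary gene in both libraries, at 111 FPKM in SATB1-positive and 31.9 FPKM in SATB1-negative cells. Its ratio was close to that of Mpo, 3.47-fold higher (3.21 to 3.75) with a log2 ratio of 1.76, and the intervals of Ctsg and Mpo overlapped. It ranked 763rd by level in SATB1-positive and 3415th in SATB1-negative cells. Ctsg covers 56099881 to 56102574 of chromosome 14 (minus strand).

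Ms4a3 encodes a membrane protein of granulocyte-monocyte progenitors and promyelocytes and is not itself a granule enzyme. It was at 139 FPKM in SATB1-positive and 52.5 FPKM in SATB1-negative cells, 2.65-fold higher (2.49 to 2.82), with a log2 ratio of 1.39. It is the median of the primary set. Ms4a3 covers 11629496 to 11640851 of chromosome 19 (minus strand).

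**Figure D2:**
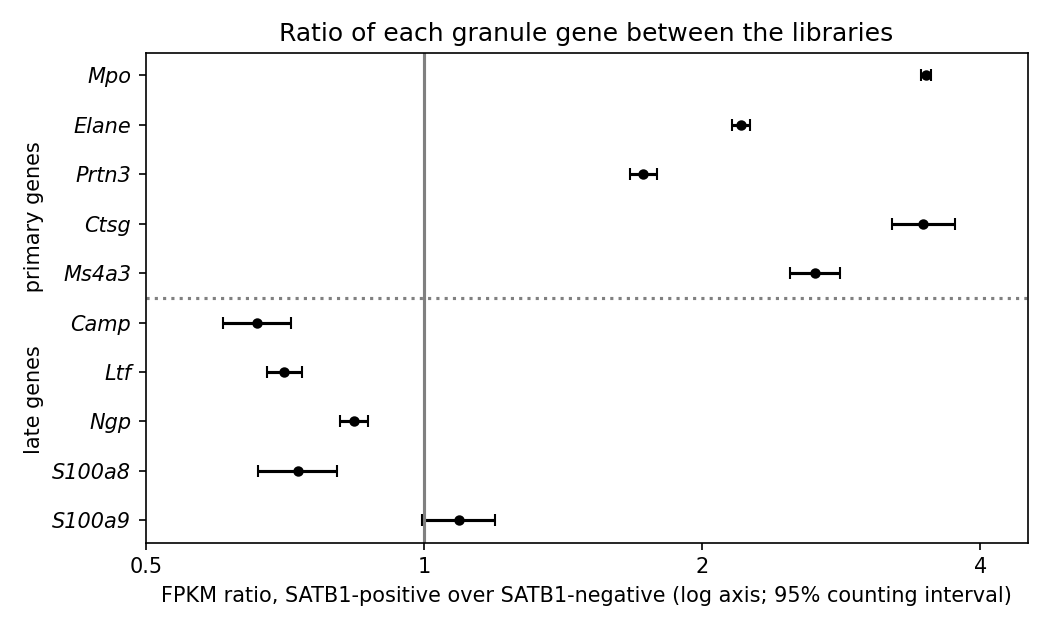
FPKM ratio of each gene, SATB1-positive over SATB1-negative, on a log axis; bars are 95% intervals for counting error only and the solid line marks a ratio of 1. The primary genes run from 1.73 for Prtn3 to 3.49 for Mpo, and among the late genes only the S100a9 interval includes 1.

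Camp encodes the cathelicidin antimicrobial peptide of secondary granules. It was at 56.0 FPKM in SATB1-positive and 84.8 FPKM in SATB1-negative cells, 1.51-fold lower (1.39 to 1.65), and its log2 ratio of -0.59 was the lowest of the 10 genes. That ratio was the 265th lowest of 9308. Camp covers 109847379 to 109849617 of chromosome 9 (minus strand), and about 822 fragments lay behind its value in SATB1-positive and 1637 in SATB1-negative cells.

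Ltf encodes lactoferrin, the iron-binding protein of secondary granules. It was at 47.1 FPKM in SATB1-positive and 66.7 FPKM in SATB1-negative cells, 1.42-fold lower (1.36 to 1.48), with a log2 ratio of -0.49. Ltf spans 111019271 to 111042767 on the plus strand of chromosome 9 and has 17 exons.

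Ngp encodes neutrophilic granule protein, a mouse relative of the cathelicidins and cystatins. It was the most abundant late gene in both libraries, at 198 FPKM in SATB1-positive and 236 FPKM in SATB1-negative cells. The difference of 1.19-fold (1.15 to 1.23) was outside counting error and small, with a log2 ratio of -0.25. Ngp lies on the plus strand of chromosome 9, at 110419747 to 110423012. Camp, Ltf and Ngp were thus all lower, and the Camp to Ngp ratio of FPKM was 0.283 in SATB1-positive and 0.360 in SATB1-negative cells.

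S100a8 and S100a9 encode the subunits of calprotectin, a calcium- and zinc-binding protein of the neutrophil cytosol. S100a8 was at 85.5 FPKM in SATB1-positive and 117 FPKM in SATB1-negative cells, 1.37-fold lower (1.24 to 1.51). S100a9 was at 105 FPKM in SATB1-positive and 95.9 FPKM in SATB1-negative cells, a ratio of 1.09 whose interval (0.996 to 1.19) includes 1. The partners thus stood in opposite order, S100a9 above S100a8 in SATB1-positive and S100a8 above S100a9 in SATB1-negative cells. The S100a8 to S100a9 ratio of FPKM was 0.818 in SATB1-positive and 1.22 in SATB1-negative cells. Both transcripts are short, 486 and 519 bases, and the FPKM of a transcript near the fragment length depends on the length correction of the authors' software. S100a8 lies at 90668978 to 90670035 on the plus strand and S100a9 at 90692632 to 90695721 on the minus strand of chromosome 3.

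**Figure D3:**
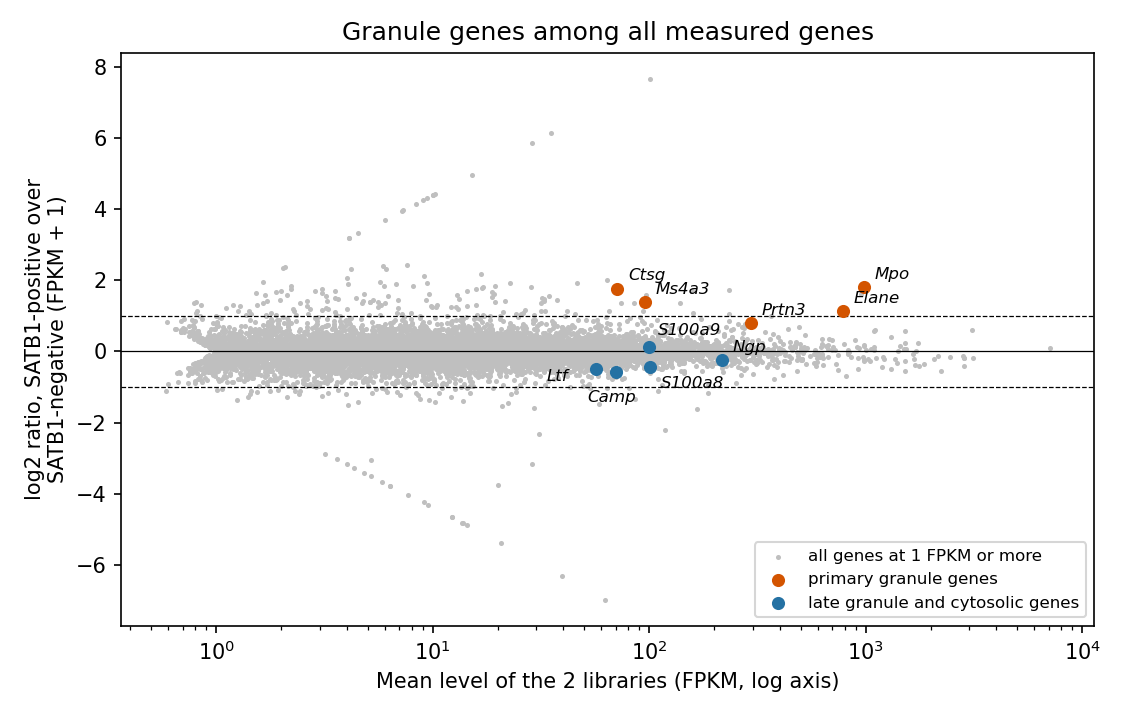
Log2 ratio (FPKM + 1), SATB1-positive over SATB1-negative, against the mean level of both libraries on a log axis, for all genes at 1 FPKM or more (gray). Dashed lines mark ratios of 1 and -1; the primary genes (orange) lie at 0.79 to 1.80 and the late genes (blue) at -0.59 to 0.12.

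All 10 genes had at least 30 FPKM in both libraries. Among the 3838 genes that reached 30 FPKM, the 5th and 95th percentiles of the log2 ratio were -0.40 and 0.45. All 5 primary genes were above that range. Camp, Ltf and S100a8 were below it, and Ngp and S100a9 were within it. No 50-base word of the 10 shortest RefSeq-linked transcripts occurred in a transcript of another gene.

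Summed over its 5 genes, the primary set was at 3234 FPKM in SATB1-positive and 1229 FPKM in SATB1-negative cells, which is 0.651% of all FPKM in SATB1-positive and 0.247% in SATB1-negative cells. The late set summed to 491 FPKM in SATB1-positive and 600.1 FPKM in SATB1-negative cells, which is 0.0989% of all FPKM in SATB1-positive and 0.121% in SATB1-negative cells. The primary to late ratio of these sums was therefore 6.58 in SATB1-positive and 2.05 in SATB1-negative cells, a 3.21-fold difference. In 25 of 25 pairs of a primary and a late gene, the ratio of their FPKM was higher in SATB1-positive cells, by 1.58-fold (Prtn3 to S100a9) to 5.29-fold (Mpo to Camp). These pairs share genes and are not independent, and the choice of members fixes much of this direction. The difference of the median log2 ratios was 1.84.

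Genes for the protein machinery around the granule proteases were level or moderately higher. Of 11 listed genes for protease activation, sorting and inhibition, 9 were measured, 7 had a log2 ratio above 0, and 0 of the 8 at 5 FPKM or more passed. The median log2 ratio of the 9 was 0.39. With 1.31% of all genes at 5 FPKM or more higher and 0.688% lower, the 0 of 8 is not a result about this list. The highest ratio was that of Rab27a, a small GTPase of granule release, at 18.4 FPKM in SATB1-positive and 9.27 FPKM in SATB1-negative cells, 1.99-fold higher (1.83 to 2.16). Slpi, a protease inhibitor gene, was at 18.2 FPKM in SATB1-positive and 12.3 FPKM in SATB1-negative cells, 1.48-fold higher (1.26 to 1.74); both genes were picked with their values in view. Srgn, the proteoglycan that retains proteases in granules, was at 1012 FPKM in SATB1-positive and 993 FPKM in SATB1-negative cells, and Serpinb1a, an inhibitor of elastase and cathepsin G, at 127 FPKM in SATB1-positive and 85.4 FPKM in SATB1-negative cells. Ap3b1, an adaptor subunit of granule sorting, was at 47.1 FPKM in SATB1-positive and 49.1 FPKM in SATB1-negative cells. Ctsc, the protease that activates elastase, proteinase 3 and cathepsin G, was at 40.9 FPKM in SATB1-positive and 34.0 FPKM in SATB1-negative cells; it was chosen after its values were seen.

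The neighbours of the 10 on their chromosomes included near-silent genes, genes that did not pass and genes with ratios like those of the members. Past Elane, the adipsin gene Cfd was at 0.0520 FPKM in SATB1-positive cells and listed at 0 in SATB1-negative cells, and Lpo, the peroxidase gene beside Mpo, was at 0.124 FPKM in SATB1-positive and 0.0739 FPKM in SATB1-negative cells. On the other side of Mpo, Bzrap1 (now Tspoap1) was at 2.78 FPKM in SATB1-positive and 0.792 FPKM in SATB1-negative cells, a log2 ratio of 1.08, and under the 5 FPKM minimum. Of the 5 heme peroxidase genes, only Mpo and Epx, the eosinophil peroxidase, were measured, and Epx was at 141 FPKM in SATB1-positive and 75.8 FPKM in SATB1-negative cells, under the rule. Of 5 proteases of the chromosome 10 group, 4 were measured, 3 at 5 FPKM or more. Of these 3, the member Elane alone passed, as higher, beside 1.31% of all such genes. Prss57, another neutrophil serine protease, was at 17.7 FPKM in SATB1-positive and 9.03 FPKM in SATB1-negative cells. Gzmm, a granzyme of the same group, was at 1.24 FPKM in SATB1-positive and 0.824 FPKM in SATB1-negative cells.

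Ctsg and Ms4a3 had neighbours that also passed as higher. Mcpt8, a basophil protease gene next to Ctsg, was at 103 FPKM in SATB1-positive and 24.8 FPKM in SATB1-negative cells. Of the 15 proteases of this chromosome 14 cluster, 3 were measured. All 3 reached 5 FPKM and passed as higher, beside 1.31% of all such genes. They were Ctsg, 1 of the 10 members, Mcpt8 and Gzmb, a granzyme at 7.07 FPKM in SATB1-positive and 0.926 FPKM in SATB1-negative cells. Gzmb reached 1 FPKM in SATB1-positive cells alone, so the filter fixed its sign, and the other 12 were under 1 FPKM in both libraries. Ms4a2, a subunit of the basophil and mast cell IgE receptor next to Ms4a3, was at 9.93 FPKM in SATB1-positive and 2.03 FPKM in SATB1-negative cells. Ms4a2 reached 5 FPKM in SATB1-positive cells alone, so the minimum left it no other direction. Of 18 listed Ms4a genes, 2 had no row matched, 8 were measured and 5 of them reached 5 FPKM. Of the 5, 3 passed as higher, beside 1.31% of all such genes: the member Ms4a3, Ms4a2 and Ms4a4b. Ms4a4b was at 28.05 FPKM in SATB1-positive and 5.38 FPKM in SATB1-negative cells.

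In the families of the late genes 0 of 7 S100 genes and 0 of 2 transferrin family genes at 5 FPKM or more passed the rule, which at 1.31% higher and 0.688% lower over all such genes is not a result about these families. Of 17 S100 genes, 10 were measured, 8 had a log2 ratio below 0 and 2 above, and their median was -0.35. S100a11 was at 163 FPKM in SATB1-positive and 198 FPKM in SATB1-negative cells, and S100a10 at 98.4 FPKM in SATB1-positive and 112 FPKM in SATB1-negative cells. S100a1 was at 41.1 FPKM in SATB1-positive and 60.7 FPKM in SATB1-negative cells. Of the 3 transferrin family genes, Ltf and Trf, serum transferrin, were measured, and Trf was at 49.6 FPKM in SATB1-positive and 32.3 FPKM in SATB1-negative cells. Around Camp, Ngp and Ltf, the neighbours Nme6 and Cdc25a, Ptpn23 and Klhl18, and Ccrl2 did not pass, and Rtp3 was listed at 0 in both libraries.

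Other genes of the neutrophil lineage were set beside the 10. Of 17 granulocyte-monocyte progenitor genes, all measured, 5 passed as higher and none of the others passed. All 17 reached 5 FPKM in either library, and of all such genes 1.31% passed as higher and 0.688% as lower. The list had a median log2 ratio of 0.76. Cst7, a cystatin gene, was at 44.6 FPKM in SATB1-positive and 11.99 FPKM in SATB1-negative cells, and Atp8b4, a membrane flippase gene, at 28.3 FPKM in SATB1-positive and 9.13 FPKM in SATB1-negative cells. Hk3, a hexokinase gene, was at 37.2 FPKM in SATB1-positive and 16.2 FPKM in SATB1-negative cells, and Clec12a, a lectin receptor gene, at 43.7 FPKM in SATB1-positive and 19.4 FPKM in SATB1-negative cells. The fifth, Dmkn, was near the minimum, at 5.32 FPKM in SATB1-positive and 2.14 FPKM in SATB1-negative cells. Dmkn reached 5 FPKM in SATB1-positive cells alone, so the minimum left it no other direction. Plac8, a progenitor gene, was at 486 FPKM in SATB1-positive and 244 FPKM in SATB1-negative cells, just under the rule, while Cd63, a granule membrane protein gene, was at 338 FPKM in SATB1-positive and 371 FPKM in SATB1-negative cells.

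The other secondary and tertiary granule genes went both ways, with log2 ratios from -0.33 to 0.67. Of 19 listed genes, 17 were measured, 9 had a log2 ratio above 0 and 8 below, 0 of the 16 at 5 FPKM or more passed the rule of size, and the median was 0.07. With 1.31% of all genes at 5 FPKM or more higher and 0.688% lower, the 0 of 16 is not a result about this list. Lyz2, lysozyme, was at 416 FPKM in SATB1-positive and 395 FPKM in SATB1-negative cells, and Anxa1, annexin A1, at 203 FPKM in SATB1-positive and 168 FPKM in SATB1-negative cells. Cyba, an NADPH oxidase subunit, was at 106 FPKM in SATB1-positive and 111 FPKM in SATB1-negative cells. Lcn2, lipocalin of secondary granules, at 63.7 FPKM in SATB1-positive and 73.2 FPKM in SATB1-negative cells, and Fcnb, ficolin B, at 24.0 FPKM in SATB1-positive and 30.4 FPKM in SATB1-negative cells, were lower. Hp, haptoglobin, at 49.0 FPKM in SATB1-positive and 30.4 FPKM in SATB1-negative cells (1.61-fold, 1.495 to 1.74), and Itgb2, the integrin beta 2 chain, at 49.3 FPKM in SATB1-positive and 31.0 FPKM in SATB1-negative cells (1.59-fold, 1.52 to 1.67), were higher. So were Pglyrp1, a peptidoglycan recognition protein gene, at 53.4 FPKM in SATB1-positive and 38.8 FPKM in SATB1-negative cells, and Itgam, the integrin alpha M chain, at 11.4 FPKM in SATB1-positive and 8.14 FPKM in SATB1-negative cells. These 6 genes were picked with their values in view.

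Of 23 mature neutrophil genes, 22 had a row, 16 were measured, 9 reached 5 FPKM and 2 of these passed as higher. Of all genes at 5 FPKM or more, 1.31% passed as higher and 0.688% as lower. The median log2 ratio of the 16 was 0.14. The list summed to 487 FPKM in SATB1-positive and 442 FPKM in SATB1-negative cells. Among the genes that passed was Ltb4r1, a leukotriene B4 receptor gene, at 11.1 FPKM in SATB1-positive and 4.70 FPKM in SATB1-negative cells. Ltb4r1 reached 5 FPKM in SATB1-positive cells alone, so the minimum left it no other direction. Alox5ap was at 238 FPKM in SATB1-positive and 252 FPKM in SATB1-negative cells, and Retnlg, a gene of late neutrophils, at 47.8 FPKM in SATB1-positive and 51.3 FPKM in SATB1-negative cells. The stefin genes Stfa1, Stfa2 and Stfa3 were listed at 0 in both libraries. Cxcr2, the chemokine receptor of mature neutrophils, was at 1.91 FPKM in SATB1-positive and 1.42 FPKM in SATB1-negative cells; this gene was picked with its values in view.

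Among 16 granulocyte regulator genes, all measured and all at 5 FPKM or more in either library, 2 passed, both as higher. Of all genes at that level, 1.31% passed as higher and 0.688% as lower. The list had a median log2 ratio of 0.23. Cebpa, needed for the granulocyte-monocyte progenitor stage, was at 7.23 FPKM in SATB1-positive and 2.18 FPKM in SATB1-negative cells, 3.31-fold higher (2.79 to 3.95). Cebpa reached 5 FPKM in SATB1-positive cells alone, so the minimum left it no other direction. Gfi1, a repressor needed for neutrophil maturation, was at 14.4 FPKM in SATB1-positive and 5.37 FPKM in SATB1-negative cells, 2.68-fold higher (2.39 to 3.002). Cebpe, which mouse secondary granule genes need, was at 14.8 FPKM in SATB1-positive and 10.1 FPKM in SATB1-negative cells and did not pass; it was chosen after its values were seen. Myb, a regulator of progenitor genes, was at 298 FPKM in SATB1-positive and 283 FPKM in SATB1-negative cells. Cebpb was at 219 FPKM in SATB1-positive and 297 FPKM in SATB1-negative cells, and Cbfb, the RUNX partner, at 128 FPKM in SATB1-positive and 119 FPKM in SATB1-negative cells.

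**Figure D4:**
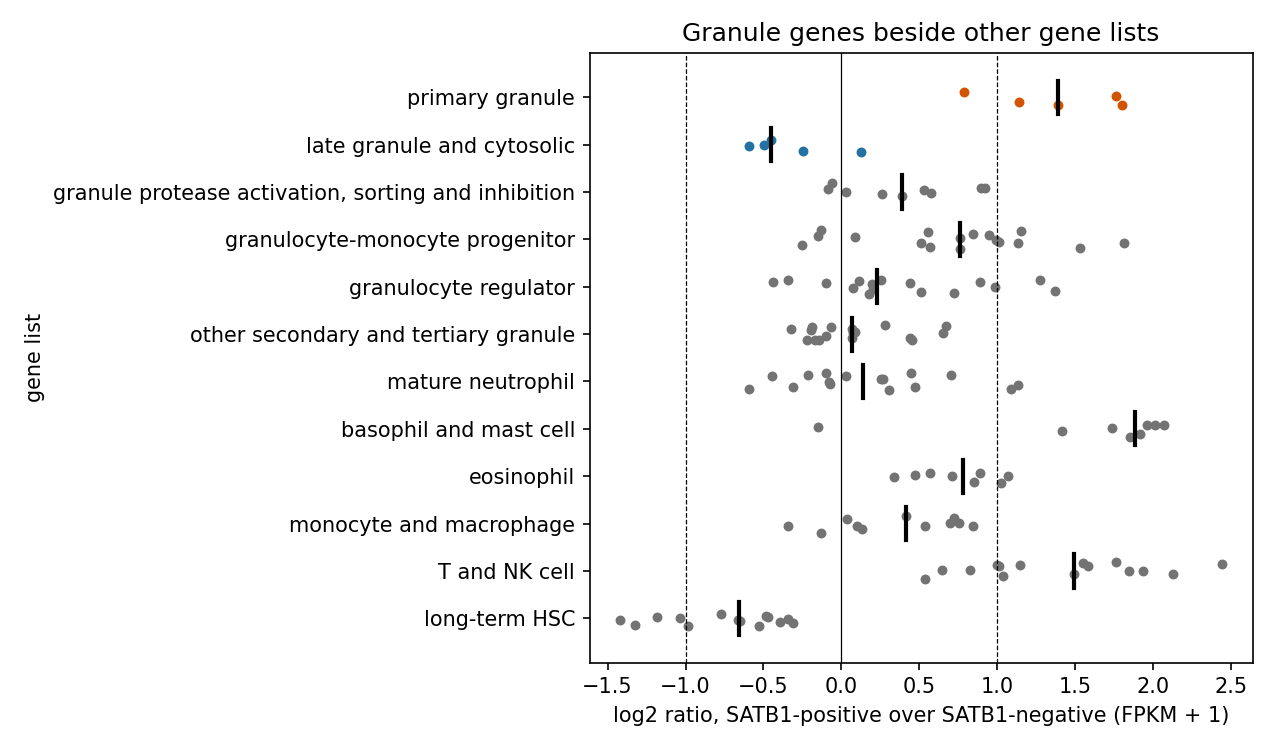
Log2 ratio (FPKM + 1), SATB1-positive over SATB1-negative, of each measured gene in 12 lists; black bars are list medians and dashed lines mark ratios of 1 and -1. The primary granule median is 1.39 and the late granule median -0.45, beside 0.76 for granulocyte-monocyte progenitor genes, 0.07 for other secondary and tertiary granule genes and 0.14 for mature neutrophil genes.

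Most measured markers of basophils and mast cells, eosinophils, monocytes and macrophages, and T and NK cells were higher in SATB1-positive cells, as the primary granule genes were. Erythroid genes went both ways, and long-term HSC genes were lower. The part of these cell types in the result was not tested. Basophil and mast cell genes, some of which share the chromosome 14 cluster with Ctsg, passed as higher in 7 of 8 measured genes (11 listed). All 8 reached 5 FPKM in either library, and 1.31% of all such genes passed as higher. Of the 7, Fcer1a, Ms4a2 and Gzmb were under 5 FPKM in SATB1-negative cells, and the minimum left them no other direction. Mcpt8, Cpa3, Prss34 and Hdc reached 5 FPKM in both libraries. The list summed to 734 FPKM in SATB1-positive and 319.8 FPKM in SATB1-negative cells. Prss34, a basophil protease gene, was at 359.8 FPKM in SATB1-positive and 107 FPKM in SATB1-negative cells. Cpa3, the mast cell carboxypeptidase, was at 74.0 FPKM in SATB1-positive and 18.9 FPKM in SATB1-negative cells, 3.92-fold higher (3.62 to 4.24). The mast cell protease genes Cma1, Tpsb2 and Tpsab1 were below 1 FPKM in SATB1-positive cells and listed at 0 in SATB1-negative cells. Eosinophil genes had a log2 ratio above 0 in 8 of 8 measured genes (10 listed). Of these, 1 reached 1 FPKM in SATB1-positive cells alone, so the filter fixed its sign. Of the 7 at 5 FPKM or more, 2 passed as higher, Ear6 and Siglec5, beside 1.31% of all such genes. Siglec5 reached 5 FPKM in SATB1-positive cells alone, and the minimum left it no other direction. The eosinophil list summed to 2208 FPKM in SATB1-positive and 1458 FPKM in SATB1-negative cells. Most of that sum was Prg2, a granule protein gene at 1815 FPKM in SATB1-positive and 1222 FPKM in SATB1-negative cells.

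Monocyte and macrophage genes passed in 0 of the 8 at 5 FPKM or more (11 measured, 13 listed) and summed to 439 FPKM in SATB1-positive and 271 FPKM in SATB1-negative cells. With 1.31% of all genes at 5 FPKM or more higher and 0.688% lower, the 0 of 8 is not a result about this list. Of the 11 measured, 9 had a log2 ratio above 0 and 2 below. T and NK cell genes passed as higher in 8 of the 8 at 5 FPKM or more, beside 1.31% of all such genes. Of these, Cd3e, Cd3d, Cd3g, Cd2 and Il2rb reached 5 FPKM in SATB1-positive cells alone, so the filter fixed their sign. Of the 15 measured T and NK cell genes, 6 reached 1 FPKM in a single library. The list summed to 449.6 FPKM in SATB1-positive and 189 FPKM in SATB1-negative cells. Erythroid genes passed as higher in 1 of the 8 at 5 FPKM or more (10 listed), Hbb-b1, whose reads can be split with near-identical globin copies. Hbb-b1 reached 5 FPKM in SATB1-positive cells alone, so the minimum left it no other direction. Hbb-b2, picked with its values in view, was lower, at 7.28 FPKM in SATB1-positive and 11.3 FPKM in SATB1-negative cells. Of the 8, 4 had a log2 ratio above 0 and 4 below, with a median of 0.12. The list summed to 459 FPKM in SATB1-positive and 302 FPKM in SATB1-negative cells. Most of that sum was Car1, at 350 FPKM in SATB1-positive and 204 FPKM in SATB1-negative cells. Long-term HSC genes passed as lower in 3 of the 13 at 5 FPKM or more (Mmrn1, Fhl1 and Clec1a) and in none as higher. Of all such genes, 0.688% passed as lower. Clec1a reached 5 FPKM in SATB1-negative cells alone, so the minimum left it no other direction. The median log2 ratio of the long-term HSC list was -0.66, and the list summed to 636 FPKM in SATB1-positive and 993 FPKM in SATB1-negative cells.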

How the data were processed

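Per the labels' protocols, total RNA came from a miRNeasy preparation and went into SMARTer Stranded (Clontech) libraries. The files deposited by the authors hold 1 FPKM value for each symbol, per the file headers. Tools named in the submitters' processing notes are Cufflinks 2.2.1, TopHat2 2.0.13, SAMtools 0.1.19 and Bowtie2 2.2.3, on build mm10. Their roles, the annotation and the strand setting are not given in the sources consulted. Cufflinks assigns fragments by a model, so genes that overlap can gain or lose fragments.

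In 25 rows per file the symbol had become a spreadsheet date, with 0.172% of all FPKM in the SATB1-positive and 0.161% in the SATB1-negative library; these were left out. Depth was found by the search for whole fragments in single-exon genes of GENCODE M21, with a length offset of 210 bases for SATB1-positive and 205 for SATB1-negative cells. Within 0.05 fragments, 60.0% of 235 low values in SATB1-positive and 61.7% of 201 in SATB1-negative cells were whole, against 10.0% for a random depth. A multiple of a depth also gives whole values, so the smallest depth with a share within 10% of the highest was used. The search and the rule of size were tested on simulated data.

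Folds with an interval are plain FPKM ratios; log2 ratios use a pseudocount of 1, which understates the difference of low genes. A listed gene that reached 1 FPKM in a single library necessarily has its ratio in that direction. The same holds for a gene that reached 5 FPKM in a single library. The 10 members and the 17 other gene lists were chosen with earlier results of these data known, and some lists share genes. Listed symbols with no row were looked up by RefSeq synonyms. In each list the genes past the rule and the 3 most abundant could be named, along with the protein-coding neighbours of the 10. A gene that this rule would name is not reported here. Intervals were computed with Python 3.11.15 and scipy 1.17.1.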

Additional observations from a re-analysis of the deposited data

How the results depend on the processing

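Alternatives were pseudocounts of 0.1 and 5 and scaling to the same sum (TPM), by the median ratio or by the upper quartile. A pseudocount cannot turn a sign, and the scaling with the largest shift between the libraries, the upper quartile, moved them by -0.0054 on the log2 scale, so these alternatives could not turn the sign of any of the 10 genes. The medians of both sets and their difference moved by less than the counting interval under these 5 alternatives, with the difference at 1.76 to 1.86. The 4 primary and 0 late genes past the rule were the same numbers under these, without a minimum and with a minimum of 10 FPKM. With a 4-fold rule 0 primary genes passed, and the counts over all genes were 24 higher and 25 lower. With a pseudocount of 5 they were 68 higher and 36 lower. With TPM values, which are larger against the same pseudocount and minimum, they were 174 higher and 100 lower. The longest transcript changes the intervals alone: that of Ms4a3 became 2.52 to 2.78. Leaving out a replicate was not possible. No paired analysis was possible because each group has 1 library. Depth does not limit these abundant genes; the lack of replicates does.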
